A study of Mus musculus with 12 samples.

Results

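The comparison described here sets siControl against no siRNA in batch 1 of an RNA-Seq study of differentiating mouse keratinocytes, and asks what transfection of a non-targeting siRNA pool does to these cells. Its members are 4 of the 12 libraries of the series, taken by their labels: siControl replicates 1 and 2 and no siRNA replicates 1 and 2. All were primary keratinocytes from newborn BALB/c mice, grown at 0.05 mM calcium and moved to 0.12 mM calcium to differentiate. The siControl cultures received 75 pmol of a commercial non-targeting pool with a lipid transfection reagent 24 hours after seeding, and their RNA was collected 48 hours later. The labels do not say whether the cultures without siRNA received the reagent, so the reagent and the siRNA cannot be told apart. They do not say either that the replicates are separate cultures, so p-values measure only the spread between these libraries. The siSbsn libraries of batch 1, which received a pool against Sbsn, are used only as values set beside these.

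Small interfering RNAs are short duplexes that are loaded into Argonaute proteins and guide them to matching transcripts. A non-targeting pool is designed to match no transcript of the cell, and serves as the control for everything else that transfection does: the lipid carrier, the load on the Argonaute proteins, and the sensing of double-stranded RNA. Cells sense such RNA through TLR3 in endosomes, through RIG-I (Ddx58) and MDA5 (Ifih1) in the cytosol and through the kinase PKR (Eif2ak2), and the known output is interferon, inflammatory cytokines and a stop of translation. Keratinocytes respond to calcium by leaving the basal state, making the suprabasal keratins KRT1 and KRT10 and desmosomes, and later the proteins of the cornified envelope.

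The libraries held 30724400 to 45056003 counts each, with the lowest in siControl replicate 1. This library stood apart from the other 3. The median absolute difference over loci on the log2 scale was 0.404 between siControl replicates 1 and 2 and 0.217 between the no siRNA replicates, while siControl replicate 2 differed from no siRNA replicate 2 by 0.191 and siControl replicate 1 from no siRNA replicate 1 by 0.52. Levels are counts per 1000000 counts of the library (CPM) after scaling by the trimmed mean of M values, so they compare a gene between libraries and not genes with each other. Differences of single libraries are taken on log2(CPM + 0.5), which understates those of low genes. All 8 keratinocyte markers were detected, with a summed level of 31177 to 57156 CPM. The 6 fibroblast markers summed to 880.5 and 456.5 CPM without siRNA and to 418.9 and 393.5 CPM in siControl, and the 6 immune cell markers to 2.90 to 10.04 CPM, with Cd207 at 0. In bulk RNA, fewer cells of a type and less RNA per cell cannot be told apart. Sbsn, the gene that the series knocks down elsewhere, was at 1609 and 1167 CPM without siRNA against 1169 and 1292 CPM in siControl, groups that overlap, with a log2-fold change of -0.17 ± 0.30 (SE, edgeR).

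No locus passed the test. Of 12959 loci tested with edgeR's quasi-likelihood test, 0 (0%) reached an adjusted p under 0.05 with an absolute log2-fold change over 0.5, and the smallest adjusted p was 0.401. At an unadjusted p under 0.05, 695 loci (5.36%) were higher and 861 (6.64%) lower in siControl. The count turned on the libraries and the filter: it was 0 without siControl replicate 1, 3223 without siControl replicate 2 (1626 higher, 1597 lower), 6 without no siRNA replicate 1 and 41 without no siRNA replicate 2, where the lone remaining library is assumed to vary like the others. Without the filter on low counts it was 377, and 372 of these calls were among the 12959 loci that pass the filter. DESeq2 called 7 loci, all lower in siControl, 0.0442% of the loci to which it gave an adjusted p. They were Flg, Adgrf2, Pappa, Plekhg1 and the joined loci Hipk2+AK076827, Atp2b4+Mir6903 and AK028659+Nebl.

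Taken separately, the same-number pairs differed in size, and the labels state no shared source for a number. The SD of the difference over loci was 0.763 for number 1 and 0.303 for number 2, a ratio of 2.52. In number 1, 910 loci were higher and 1377 lower by over 1 on the log2 scale; in number 2, 1 was higher and 73 lower. Both differences were above 0 at 40.7% of the loci and below 0 at 39%, and over the 12959 loci they correlated with r = 0.751 (Pearson), a description across genes that are not independent. With the numbers crossed, so that each siControl library was set against the other no siRNA library, r was 0.227. Without regard to number, both siControl libraries lay above both no siRNA libraries at 29% of the loci and below both at 26.4%. These shares over all loci are the background against which the counts of gene groups below are read. They change with transcript length, as given below, so for lists of short or long transcripts the share at that length matters more. The shares without overlap were not counted by length.

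**Figure D1:**
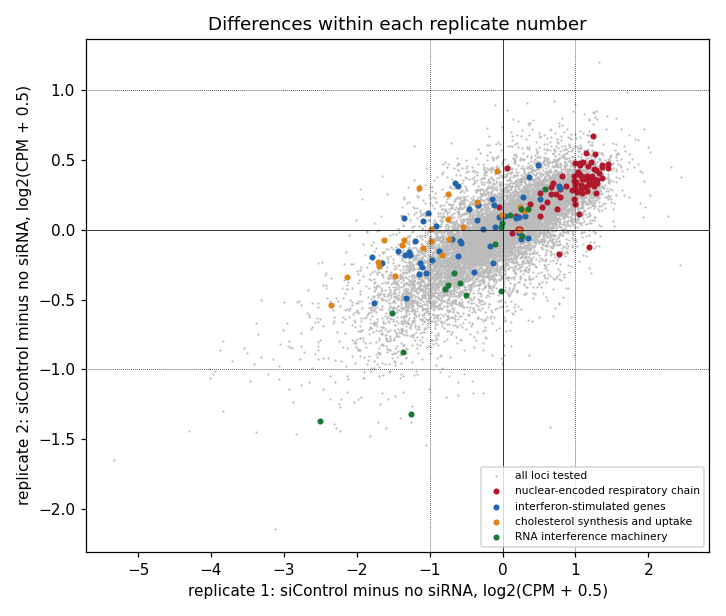
Difference between siControl and no siRNA on log2(CPM + 0.5) in replicate 1 (x axis) and replicate 2 (y axis) for each of the 12959 loci tested, with 4 gene lists in colour and dotted lines at 1 and -1. The x axis spans more than the y axis, respiratory chain genes gather at the upper right, and the lower left corner beyond both lines holds 62 loci against 1 at the upper right.

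Both same-number differences passed 1 in the same direction at 63 loci. The 1 locus that was higher (0.00772% of those tested) was Prr7, which encodes a small membrane adaptor (chr13:55464267-55473155, mm10). It was at 3.69 and 2.27 CPM without siRNA against 9.99 and 5.86 CPM in siControl. The differences were 1.32 and 1.20, and the siSbsn libraries held 4.08 and 3.32 CPM. The groups did not overlap, and the siSbsn values lay near those without siRNA. The siControl libraries of batch 2, a batch without untransfected cultures, held 5.96 to 8.35 CPM of Prr7. The same libraries held 88.7 to 232.0 CPM of Ago2 and 41.2 to 65.1 CPM of Rplp2, and for these loci, described below, both siControl libraries of batch 1 lay outside those ranges. The other 62 loci (0.478%) were lower.

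Flg, which encodes profilaggrin, the precursor of the protein that bundles keratin in the outermost living layers, had the largest smaller difference of the 6496 loci with 1 name and a mean of 10 CPM or more. It was at 13.4 and 23.7 CPM without siRNA against 1.10 and 4.99 CPM in siControl, so that the differences were -3.12 and -2.14 and the edgeR log2-fold change was -2.59 ± 0.63 (SE, n = 2 and 2, unadjusted p = 0.00265). All siControl values were under all values without siRNA, and the siSbsn libraries, at 9.71 and 16.1 CPM, lay nearer to the latter. The locus counted as Flg, chr3:93277568-93280313, is shorter than the repeat-rich transcript is known to be. Adgrf2, an adhesion G protein-coupled receptor, was at 26.4 and 18.3 CPM without siRNA against 1.38 and 7.11 CPM in siControl.

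Ago2, also among the 12 loci that led downward, encodes the Argonaute protein that cuts the targets of siRNA (chr15:73101625-73184947, minus strand, 19 exons). It was at 127.7 and 200.1 CPM without siRNA against 22.0 and 77.4 CPM in siControl, with differences of -2.51 and -1.37. The siSbsn libraries held 83.3 and 191.3 CPM. Cbl, a ubiquitin ligase that takes activated growth factor receptors out of use, was at 25.2 and 39.2 CPM without siRNA against 4.64 and 14.7 CPM in siControl. Zbed6, a zinc finger factor from a transposon, was at 85.0 and 122.1 CPM without siRNA against 1.63 and 38.6 CPM in siControl. It lies in 1 exon of the minus strand inside Zc3h11a, whose joined locus differed by -1.40 and -0.34, so how reads were split between them bears on its value. D830031N03Rik, with differences of -4.31 and -1.44, lies inside Macf1 in the same way.

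The other loci of the 12 were as follows. Clcn5, an endosomal chloride transporter, differed by -3.39 and -1.45. Lyst, which governs lysosome size, differed by -2.87 and -1.23, and Vps13c, a lipid transfer protein, by -2.23 and -1.27. Tmem245, a membrane protein, was the closest of them between the numbers, with -1.82 and -1.48. Ahnak2, a scaffold protein, differed by -2.84 and -1.46, and Sdk2, an adhesion protein, by -2.29 and -1.42. The joined locus Hipk2+AK076827, where Hipk2 is a nuclear kinase, had the smallest p of all, with 22.7 and 28.3 CPM without siRNA against 7.15 and 10.2 CPM in siControl and a log2-fold change of -1.55 ± 0.32 (SE, edgeR, unadjusted p = 0.00105, adjusted p = 0.401). Pappa, a protease of IGF binding proteins, followed with a log2-fold change of -1.87, and Lvrn, an aminopeptidase, was at 0.87 and 0.29 CPM without siRNA against 0 and 0.027 CPM in siControl.

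Of the leading 12 loci upward, Rplp2 had the largest smaller difference. Rplp2, a protein of the ribosomal stalk (chr7:141447650-141451342), was at 62.8 and 43.0 CPM without siRNA against 170.1 and 76.1 CPM in siControl. The differences were 1.43 and 0.81, both siControl values were above both others, and siSbsn held 70.8 and 48.7 CPM. Nme2, a nucleoside diphosphate kinase, differed by 1.42 and 0.73, and Ndufa12, a subunit of complex I, by 1.24 and 0.67. Hint2, a mitochondrial nucleotide hydrolase, differed by 1.27 and 0.81. Nme2 shares an annotated read-through transcript with its neighbour Nme1.

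Sprr2e and Lce3c, precursors of the cornified envelope, belong to families with near-identical copies and are uncertain for that reason. Sprr2e was at 5.53 and 8.15 CPM without siRNA against 13.7 and 14.1 CPM in siControl, and the siSbsn libraries held 5.08 and 5.11 CPM. Lce3c was at 11.4 and 13.0 CPM without siRNA against 41.0 and 20.7 CPM in siControl. Jund, a member of the AP-1 transcription factor, was at 217.2 and 164.3 CPM without siRNA against 497.1 and 262.9 CPM in siControl. Tmsb10, which binds actin monomers, differed by 0.99 and 0.69, and Tmem238 by 1.74 and 0.68. The remaining loci were Epb41l4aos, with 1.94 and 0.72, Dhrsx, with 1.06 and 0.66, and Nrtn, a neurotrophic ligand, with 1.01 and 0.66. Nrtn overlapped between the groups, at 12.9 and 5.07 CPM without siRNA and 26.5 and 8.28 CPM in siControl. By unadjusted p, Epb41l4aos, E130012A19Rik and Lce3c led the loci that were higher, with log2-fold changes of 1.45, 1.34 and 1.34.

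**Figure D2:**
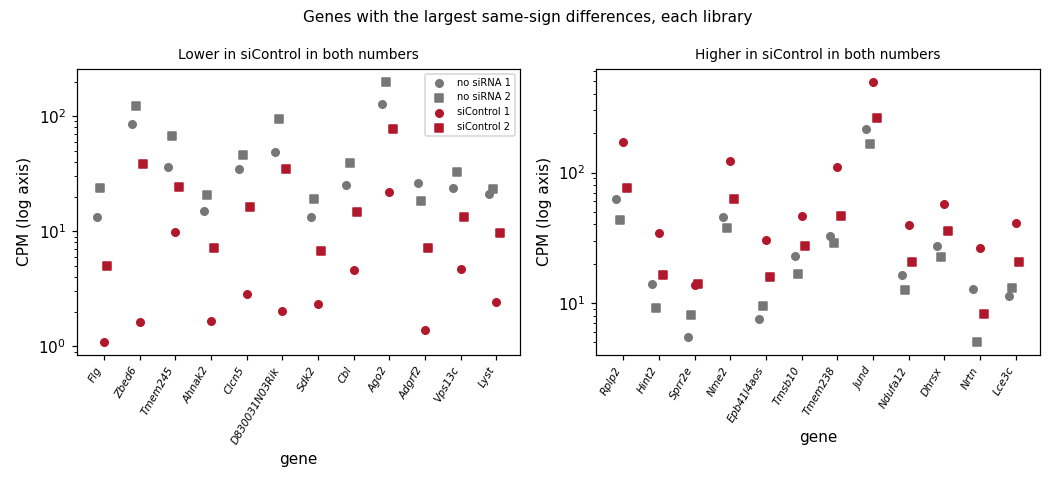
Level of the 12 loci with the largest same-sign difference in each direction (left, lower in siControl; right, higher), in CPM on a log axis, with circles for replicate 1 and squares for replicate 2, grey without siRNA and red for siControl. On the left every red circle lies under every grey point of its gene, and on the right every red circle lies above both grey points of its gene.

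These leading loci differed in a property that was not used to pick them. Of the 55 loci lower by over 1 in both numbers that have an annotated transcript length, 43 (78.2%) were over 6000 bases, against 14.5% of the loci tested, and their median length was 10820 bases against 3236. By length, the median difference in number 1 went from 0.89 at 600 to 999 bases to -0.96 at 8000 bases or more, and in number 2 from 0.30 to -0.50. The rank correlation with length was -0.657 in number 1 and -0.638 in number 2 over 12078 loci (Spearman, across genes). The pair of libraries without siRNA differed from each other along the same property, by -0.16 in the first of these bins and 0.21 in the last, replicate 2 minus replicate 1. Both same-number differences were above 0 at 81% of loci of 600 to 999 bases and at 80% of those of 1000 to under 1500. Both were below 0 at 66.3% of loci of 4000 to under 6000 bases and at 88.5% of those of 8000 or more.

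Per library, loci under 1000 bases took 3.22% and 2.68% of the counts without siRNA, 5.93% and 3.42% in siControl and 3.51% and 2.79% in siSbsn of batch 1. Loci over 6000 bases took 18% and 21.1%, 10.2% and 16.3%, and 16.6% and 20.2%, beside 17.9% to 22.9% in siControl of batch 2. On both measures the siControl libraries lay outside the no siRNA libraries, by 1.72 and -6.30 percentage points in the mean. The exact permutation test (two-sided, 2 against 2) gave p = 0.333 for each, the smallest that this design allows. After a trend of each library with length was taken out, the SD of the differences was 0.599 and 0.238, and 20 of the loci tested were lower by over 1 in both numbers and 0 higher. Loci without a length kept their values in this step. Of the 62 loci lower before it, 55 have a length, and the rest, among them Flg and D830031N03Rik, stayed in the count uncorrected. What length, or RNA quality that could move with it, contributes to a given gene was not tested. For gene groups the median log2-fold change is therefore also given with the trend removed where it changes sign or moves by over 1.5 times.

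**Figure D3:**
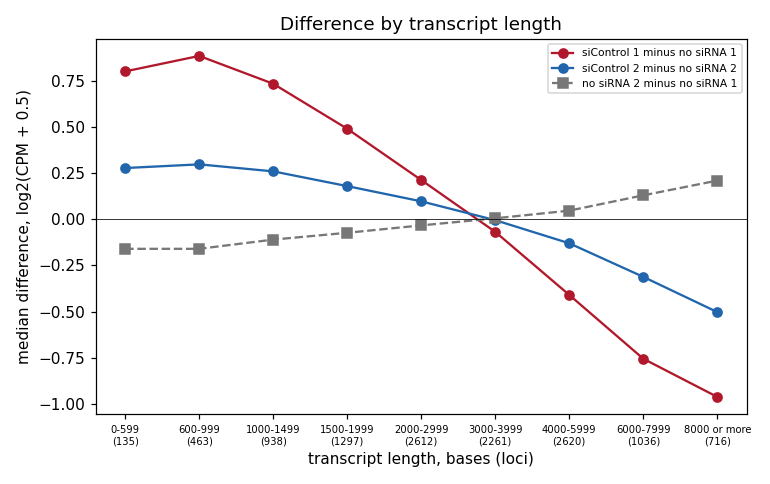
Median difference on log2(CPM + 0.5) of loci in 9 classes of transcript length (x axis, with the number of loci), for siControl minus no siRNA in replicate 1 (red) and replicate 2 (blue) and for no siRNA replicate 2 minus replicate 1 (grey). The red and blue lines cross 0 near 3000 bases, the blue one with the smaller slope, and the grey line slopes the other way between -0.16 and 0.21.

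Most genes of the interferon response lay lower in siControl in number 1 and near their level without siRNA in number 2. Of the 49 interferon-stimulated genes tested, 0 passed the test, 15 had a log2-fold change above 0 and 34 below, and the median was -0.35, against 0.0059 over all loci. The order of the libraries shows where this median lies: it was -0.57 in number 1 and -0.020 in number 2, and without no siRNA replicate 1 it was 0.17. Both differences were above 0 for 10 genes and below 0 for 22. The genes are known to be switched on through the interferon-stimulated response element, here searched as GAAA, any 2 bases and GAAA again on either strand in the 250 bases before and 50 after the start (RefSeq, GRCm38.p6). It stood in the promoter of 17 of the 38 list members that matched (44.7%), and of 3.99% of all genes. Those of Ifit1, Isg15 and Oas1a are shown from the strand of the gene, with the element in capitals, because they carry it in more than 1 overlapping or neighbouring copy (with TTTC in place of GAAA where it lies on the other strand).
Ifit1, chr19:34640765-34640833, plus strand: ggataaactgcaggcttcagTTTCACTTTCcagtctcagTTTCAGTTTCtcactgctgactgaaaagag
Isg15, chr4:156200855-156200916, minus strand: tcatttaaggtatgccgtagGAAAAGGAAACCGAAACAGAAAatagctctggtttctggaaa
Oas1a, chr5:120907510-120907565, minus strand: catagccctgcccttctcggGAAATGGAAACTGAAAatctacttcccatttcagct
Of the 17 genes with the element, 4 had a log2-fold change above 0, with a median of -0.45, of the 21 whose promoter lacked it 8, with a median of -0.22, and of the 11 whose promoter was not searched 3, with a median of -0.23.

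Ifit1, which binds foreign RNA ends, was at 51.6 and 19.2 CPM without siRNA and 24.1 and 20.1 CPM in siControl, and the siSbsn libraries held 46.0 and 19.6 CPM. No siRNA replicate 1 and siSbsn replicate 1 were high and the other libraries alike. The 6 immune cell markers summed to 10.04 and 2.90 CPM without siRNA, 3.22 and 3.30 CPM in siControl and 9.36 and 3.71 CPM in siSbsn, high in the same libraries, as were the fibroblast markers, and their part in the interferon values was not tested. The log2-fold change was -0.68, with a 95% interval of -1.67 to 0.30 (edgeR). Isg15, a ubiquitin-like modifier, was at 125.9 and 54.0 CPM without siRNA against 113.7 and 63.1 CPM in siControl, with an interval of -1.01 to 0.96. Oas1a, which makes the activator of RNase L, was at 24.3 and 13.9 CPM and at 30.1 and 14.9 CPM. Its interval was -0.70 to 1.17, so a doubling is within it. Mx1, an antiviral GTPase, was under 1 CPM in all 4 libraries. The list members at 5 CPM or more that moved furthest were all lower: Gbp7, with differences of -1.65 and -0.24, Oasl2, with -1.34 and -0.18, Parp14, with -1.33 and -0.49, and Oas3, with -1.43 and -0.16.

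The sensors themselves leaned the same way. Of 19 genes of nucleic acid sensing and interferon induction, 13 were lower in both numbers and 3 higher in both, with medians of -0.25 and -0.11. Ifih1 was at 76.6 and 55.5 CPM without siRNA against 34.0 and 44.7 CPM in siControl. Eif2ak2 was at 113.5 and 90.8 CPM and at 55.0 and 69.1 CPM, and in neither gene did the groups overlap. Tlr3 was at 8.40 and 7.44 CPM and at 3.93 and 5.58 CPM. Ddx58 was the closest, at 95.2 and 87.9 CPM against 65.1 and 81.4 CPM, and Zc3hav1, an antiviral protein that binds CpG-rich RNA, differed by -1.35 and -0.39. The siSbsn libraries held 73.0 and 56.6 CPM of Ifih1, 100.9 and 96.75 CPM of Eif2ak2 and 8.46 and 7.58 CPM of Tlr3. These values lay near those without siRNA. For Ddx58 they held 83.5 and 81.3 CPM and for Zc3hav1 92.15 and 116.6 CPM. Each lay under the no siRNA library of the same number. The transcripts of Ifih1, Eif2ak2, Tlr3 and Zc3hav1 have 5470, 4313, 4407 and 4944 bases. With the length trend removed their log2-fold changes were -0.392, -0.525, -0.531 and -0.517, in place of -0.747, -0.719, -0.733 and -0.764. The median log2-fold change of the list was -0.186 with and without the trend. The interferon gene Ifnb1 was at 0.067 CPM or less in all 4 libraries.

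**Figure D4:**
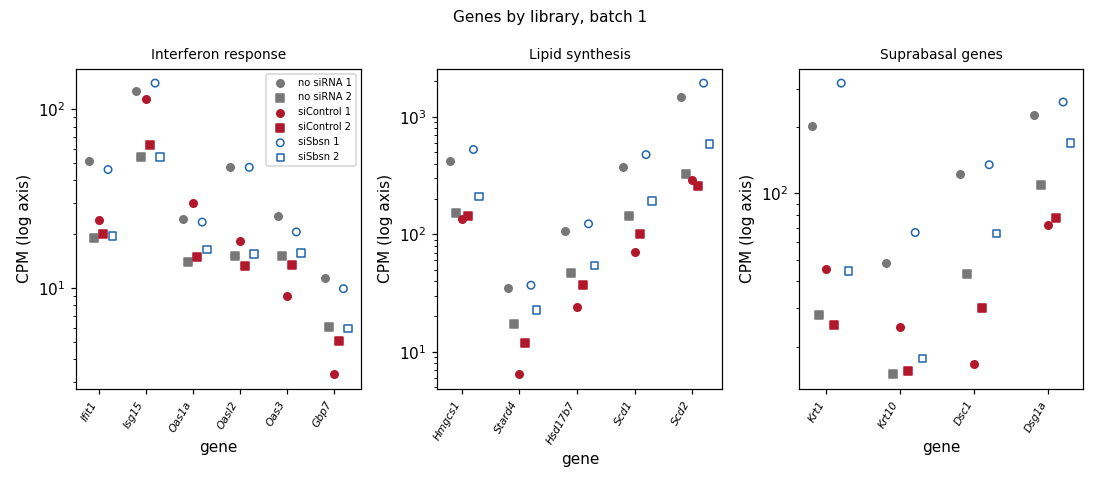
Level in each batch 1 library, in CPM on a log axis, of interferon response, lipid synthesis and suprabasal genes, with circles for replicate 1 and squares for replicate 2. For most genes, as for Ifit1 and Hmgcs1, the no siRNA circle and the open siSbsn circle lie together at the top, and both siControl points lie under them; Isg15 and Oas1a have their siControl circle high as well.

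The machinery of RNA interference had close medians in the numbers, -0.30 and -0.35. Its Argonaute genes were lower in both: Ago2 as given above, Ago1 at 82.8 and 73.7 CPM without siRNA against 28.4 and 48.6 CPM in siControl, and Ago3 at 9.71 and 18.7 CPM against 3.75 and 7.16 CPM. Tnrc6b, a scaffold that joins Argonaute to the deadenylases, differed by -1.36 and -0.88. None of these groups overlapped. The siSbsn libraries held 73.4 and 76.75 CPM of Ago1, 7.99 and 15.7 CPM of Ago3 and 32.6 and 51.9 CPM of Tnrc6b. In each of these genes both siSbsn values lay above both siControl values. Of the 18 genes, 11 were lower and 4 higher in both numbers, and 8 had both siControl libraries under both others (26.4% of all loci). Tarbp2 and Prkra, partners of Dicer, differed by 0.58 and 0.29 and by 0.25 and 0.15. At 61.1%, the share of the list lower in both numbers was near the 66.3% of all loci of 4000 to under 6000 bases. The median transcript of this list is 5809 bases long. With the length trend removed its median was 0.040, and the log2-fold changes were -0.96 for Ago2, of 13800 bases, -0.52 for Ago1, -0.44 for Ago3 and -0.12 for Tnrc6b. The difference of Ago3 in number 1 was then 0.013.

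Genes of NF-kB signalling and cytokines had a median difference of 0.20 in both numbers. Of 35 tested, 19 (54.3%) were higher and 7 (20%) lower in both. With the length trend removed these medians were -0.0029 and 0.028, and the median log2-fold change of 0.33 was 0.10, or 0.042 without no siRNA replicate 1. The median transcript of the list has 1754 bases. Of all loci of 1500 to under 2000 bases, 71.1% were higher and 7.4% lower in both, so the list did not exceed transcripts of its length. Cxcl1, a neutrophil chemokine, was at 3.36 and 8.38 CPM without siRNA against 5.84 and 13.8 CPM in siControl, with differences of 0.72 and 0.69 and overlapping groups. The siSbsn libraries held 2.25 and 3.37 CPM, near or under the lowest of these. Ccl20, which draws dendritic cells, was at 2.16 and 6.03 CPM and at 5.42 and 9.13 CPM. Relb, a subunit of NF-kB, was at 29.6 and 47.6 CPM and at 73.2 and 63.8 CPM, and Cxcl16 at 253.6 and 373.4 CPM and at 522.3 and 464.3 CPM, both without overlap.

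Of the 19 immediate early and AP-1 genes, 11 (57.9%) were higher and 6 (31.6%) lower in both numbers. Their median transcript has 2338 bases. Of all loci of 2000 to under 3000 bases, 55.1% were higher and 17.6% lower in both, so the share higher was near that of this length. Beside Jund the higher genes were led by Fosl1, the FRA1 subunit of AP-1, with differences of 1.38 and 0.38, and Ier2, with 1.12 and 0.32. Egr3 differed by -1.30 and -0.13. Among the feedback genes and ligands of EGF receptor signalling the median was -0.57 in number 1 and 0.0019 in number 2. Phlda1 was at 169.9 and 245.7 CPM without siRNA against 323.8 and 343.4 CPM in siControl, beside 143.7 and 163.2 CPM in siSbsn. Erbb3, a receptor of the same family, was at 124.2 and 154.9 CPM without siRNA against 17.8 and 92.8 CPM in siControl. Among actin, SRF and YAP targets, Thbs1, a matrix glycoprotein, differed by -2.0 and -0.30, and the median log2-fold change of that list was 0.14, or 0.021 with the length trend removed.

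**Figure D5:**
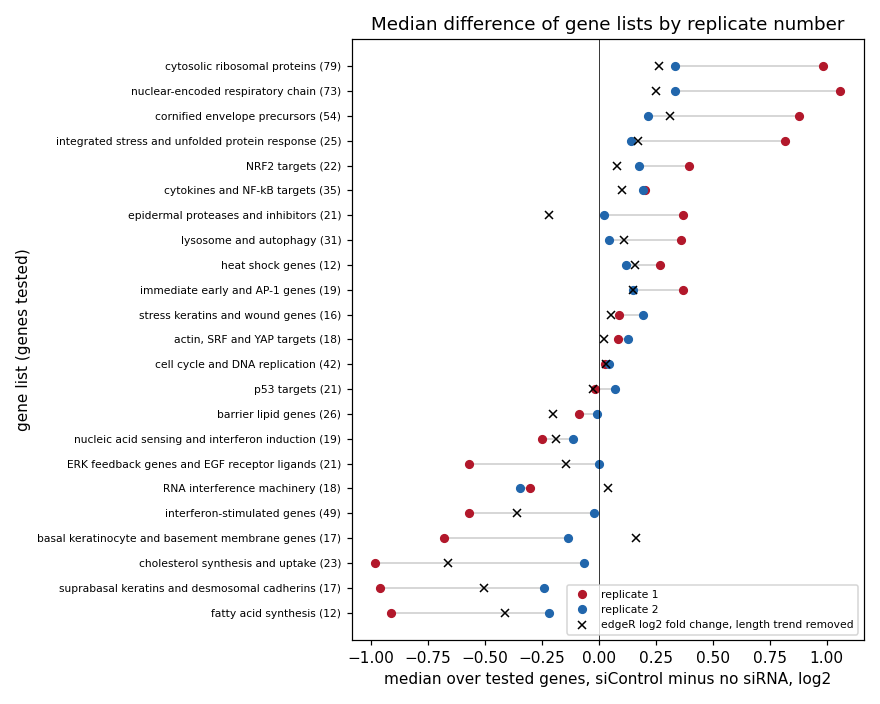
Median difference over the tested genes of 23 gene lists, siControl minus no siRNA on the log2 scale, in replicate 1 (red) and replicate 2 (blue), with the median edgeR log2-fold change after removal of the length trend (cross). Replicate 1 lies further from 0 for most lists; the RNA interference list has both points together and its cross on the other side of 0, as has the cross of the basal list.

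Stress programmes were mostly higher, and by unequal amounts. Of 25 genes of the integrated stress and unfolded protein responses, 20 were higher and 2 lower in both numbers, with medians of 0.82 and 0.14. The median log2-fold change of 0.47 was 0.17 with the length trend removed and 0.28 without siControl replicate 1. Trib3, a pseudokinase induced by ATF4, was at 58.0 and 90.4 CPM without siRNA against 154.3 and 106.5 CPM in siControl. Phgdh, the first enzyme of serine synthesis, was at 19.7 and 20.6 CPM and at 44.8 and 29.6 CPM, and Slc3a2, the heavy chain of amino acid exchangers, at 182.7 and 287.5 CPM and at 415.0 and 351.1 CPM. In all 3 the groups did not overlap. The siSbsn libraries held 60.15 and 90.84 CPM of Trib3, 19.84 and 18.87 CPM of Phgdh and 183.5 and 250.6 CPM of Slc3a2. These values lay within or near the range without siRNA. Of 12 heat shock genes, 10 were higher in both numbers, with medians of 0.27 and 0.12, among them Hspb1, with 0.86 and 0.60, and Hspe1, with 1.22 and 0.31.

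NRF2 targets, which protect from oxidants, gave 17 of 22 genes higher in both numbers. Their median log2-fold change of 0.34 was 0.079 with the length trend removed and 0.054 without siControl replicate 1. Ftl1 and Fth1, the chains of ferritin, differed by 1.28 and 0.42 and by 0.98 and 0.47. Slc7a11, the cystine carrier of the same pathway, went the other way, at 20.1 and 20.7 CPM without siRNA against 7.61 and 12.9 CPM in siControl. Its transcript has 9223 bases and those of Ftl1 and Fth1 968 and 1494. Among p53 targets the median was near 0 in both numbers, at -0.014 and 0.071, and the median log2-fold change of 0.014 was -0.023 with the length trend removed. Cdkn1a, the p21 inhibitor of the cell cycle, was at 1166 and 1073 CPM without siRNA against 1337 and 1214 CPM in siControl, with a 95% interval of the log2-fold change of -0.45 to 0.83 (edgeR), and Bax differed by 1.22 and 0.49. In lysosome and autophagy genes, 16 of 31 were higher in both numbers, with Cd63 at 99.1 and 87.8 CPM against 229.8 and 127.5 CPM and Sqstm1 at 374.5 and 699.8 CPM against 714.7 and 859.7 CPM. Their median log2-fold change of 0.22 was 0.11 with the length trend removed and -0.027 without siControl replicate 1.

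Ribosomal and respiratory genes were the most uniform of the 23 lists. Of the 79 genes of cytosolic ribosomal proteins, 72 were higher in both numbers and 0 lower in both, with medians of 0.98 and 0.34. In 58 of them both siControl libraries lay above both others, beside 29% of all loci. Rps19 was at 109.9 and 86.2 CPM without siRNA against 324.6 and 132.4 CPM in siControl, beside 112.7 and 93.5 CPM in siSbsn, and Rpl14 at 207.9 and 187.6 CPM, 593.7 and 255.2 CPM, and 206.1 and 190.0 CPM. In both genes the siSbsn values lay within or near the range without siRNA. Of the 73 nuclear-encoded genes of the respiratory chain, 69 were higher in both numbers and 0 lower in both, with medians of 1.06 and 0.34. Uqcrq, a subunit of complex III, was at 181.5 and 154.7 CPM without siRNA against 491.9 and 214.2 CPM in siControl, and Atp5e, of the ATP synthase, at 54.2 and 45.7 CPM and at 148.3 and 62.2 CPM. For the ribosomal and respiratory lists the shares higher in both numbers were 91.1% and 94.5%. Among all loci they were 81% at 600 to under 1000 bases and 80% at 1000 to under 1500. These lists hold short transcripts, with median lengths of 964 and 1026 bases. With the length trend removed their medians were 0.26 and 0.25, with 69 genes above 0 in each, and without siControl replicate 1 they were 0.25 and 0.22.

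Envelope precursors were mostly higher and suprabasal genes mostly lower. Of 54 cornified envelope precursors, 38 (70.4%) were higher and 7 lower in both numbers, with medians of 0.88 and 0.22. Their median transcript has 731 bases. Of all loci of 600 to under 1000 bases, 81% were higher in both numbers, with medians of 0.89 and 0.30, so the list did not exceed short transcripts in general. Flg, given above, is a member of this list and the lowest. The median log2-fold change of 0.69 was 0.32 with the length trend removed and 0.17 without siControl replicate 1. The Lce family consists of late envelope proteins encoded side by side on chromosome 3. Of its 20 genes, 18 were higher in both numbers and 17 had both siControl libraries above both others (29% of all loci). Their differences ran from 0.76 to 2.45 in number 1 and from -0.25 to 0.80 in number 2, and their median log2-fold change was 1.30, or 0.62 with the length trend removed. Lce1g was at 5.73 and 13.2 CPM without siRNA against 33.5 and 17.3 CPM in siControl, and Lce1b at 5.62 and 7.44 CPM and at 24.4 and 8.93 CPM. Of 13 Sprr genes, 10 were higher in both numbers and 6 had both siControl libraries above both others (29% of all loci). The median of the Sprr genes was 0.67, or 0.034 with the trend removed. Ivl, an early scaffold of the envelope, differed by 0.47 and 0.18, Lor by 0.63 and 0.48 and Tgm1, the transglutaminase that joins them, by 0.44 and 0.062. Without siControl replicate 1 the log2-fold changes of Lor and Tgm1 were -0.13 and -0.076.

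Of 17 suprabasal keratins and desmosomal cadherins, 13 were lower and 1 higher in both numbers, with medians of -0.96 and -0.24. Dsc1, a cadherin of suprabasal desmosomes, was at 122.0 and 43.2 CPM without siRNA against 16.8 and 30.0 CPM in siControl, beside 135.1 and 65.8 CPM in siSbsn. Dsg1a, its partner, was at 228.0 and 109.0 CPM, 71.5 and 77.5 CPM, and 260.4 and 169.7 CPM. In these cadherins both siControl values lay under the other 4. Krt1 overlapped, at 202.9 and 28.1 CPM without siRNA against 45.4 and 25.2 CPM in siControl, beside 317.4 and 44.3 CPM in siSbsn. Krt10, its partner, was at 48.4 and 15.1 CPM and at 24.8 and 15.6 CPM. For both keratins the libraries without siRNA were further apart from each other than the siControl libraries were, and without no siRNA replicate 1 the log2-fold changes were 0.29 and 0.39, in place of -1.71 and -0.66.

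The most abundant keratins were highest in siControl replicate 1. Krt17, a keratin of stressed and wounded epidermis, was at 22844 and 17789 CPM without siRNA against 49062 and 23101 CPM in siControl, and Krt14, of the basal layer, at 15801 and 11778 CPM and at 28329 and 14810 CPM. Krt16 differed by 0.81 and 0.28. Over stress keratins and wound genes the median log2-fold change was 0.15, or 0.053 with the length trend removed. Krt5 and Krt6a differed by 0.41 and 0.29 and by 0.33 and 0.22, and without siControl replicate 1 their log2-fold changes were -0.11 and -0.13. Over the 17 genes of the basal layer and the basement membrane, 11 were lower in both numbers, with medians of -0.68 and -0.14, among them Itga6, an integrin of hemidesmosomes, with -1.16 and -0.33, and Itga2, with -3.55 and -0.85. The share of the 17 genes lower in both numbers was 64.7%, beside 66.3% of all loci of 4000 to under 6000 bases. The median transcript of the list has 5366 bases, and with the length trend removed the median of the list was 0.16. Dst, the hemidesmosomal plakin with 23279 bases, went from -0.71 to 0.42. Epidermal proteases and inhibitors also changed sign, from a median of 0.23 to -0.22. Of 26 barrier lipid genes, 11 were lower and 9 higher in both numbers, and the median log2-fold change of -0.13 was -0.20 with the trend removed. Abca12, the lipid carrier of lamellar granules, was at 419.2 and 462.6 CPM without siRNA against 99.5 and 246.4 CPM in siControl.

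Lipid synthesis genes separated the replicate numbers. In 23 genes of cholesterol synthesis and uptake the median was -0.98 in number 1 and -0.063 in number 2. Hmgcs1, an early enzyme of the pathway, was at 420.1 and 151.2 CPM without siRNA against 135.0 and 143.8 CPM in siControl, beside 526.7 and 209.8 CPM in siSbsn. Both siControl values lay under the other 4, and the libraries without siRNA were far apart. Without no siRNA replicate 1 the median of the list was 0.00065, so the size of this difference rested on that library. The summed fibroblast markers had the same high libraries, with 880.5 CPM in no siRNA replicate 1 and 1101 and 463.7 CPM in siSbsn, and their part in the result was not tested. Stard4 and Hsd17b7 were the furthest of the list, with -2.36 and -0.54 and with -2.13 and -0.34.

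Of 12 genes of fatty acid synthesis, 10 were lower in both numbers, with medians of -0.91 and -0.22. In 9 of them both siControl libraries lay under both others (26.4% of all loci). The median log2-fold change of -0.67 was -0.41 with the length trend removed and -0.31 without no siRNA replicate 1, where Scd2 went from -1.72 to -0.29. Scd1, a desaturase of fatty acids, was at 371.6 and 142.2 CPM without siRNA against 71.4 and 99.9 CPM in siControl, in a joined locus. Scd2, also joined, was at 1485 and 327.8 CPM and at 291.2 and 258.4 CPM, and Elovl6, an elongase, differed by -1.49 and -0.36. Fasn, the synthase itself, differed by -0.95 and -0.43. Its transcript has 10050 bases, and with the length trend removed its log2-fold change was 0.062 in place of -0.70.

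Proliferation genes were centred near 0, with medians of 0.027 and 0.047 over 42 genes of the cell cycle and DNA replication, 18 of them higher and 14 lower in both numbers. Mki67, a marker of cycling cells, was at 77.7 and 97.9 CPM without siRNA against 39.1 and 56.6 CPM in siControl, and Cenpf, a kinetochore protein, at 21.6 and 27.2 CPM and at 9.99 and 17.4 CPM. Birc5, or survivin, went the other way, at 14.2 and 12.3 CPM against 24.1 and 15.9 CPM. None of these groups overlapped. The transcripts of Mki67 and Cenpf have 10061 and 11130 bases and that of Birc5 3334, and with the length trend removed the log2-fold changes of Mki67 and Cenpf were -0.14 and -0.074 and that of Birc5 0.63.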

How the data were processed

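RNA of cultured keratinocytes was sequenced in 12 libraries, and 4 libraries of batch 1 were compared by their labels. The authors aligned reads with STAR to mm10, kept uniquely aligned reads and deposited whole-number counts per locus of the UCSC KnownGene annotation, without normalization. No source used here says whether strand was used in counting. Unique alignment can lower genes with near-identical copies. Several names are joined at 4802 of 21947 loci, among them those of Zc3hav1, Tnrc6b, Cxcl16, Scd1, Scd2, Slc7a11, Itga6, Abca12 and Fosl1. Names joined by a comma were left out of gene lists.

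In edgeR 4.0.16 (R 4.3.3) the counts were filtered for low values and scaled by TMM, and a quasi-likelihood test was run over 12959 loci, with Benjamini-Hochberg adjustment and the thresholds of the Methods (0.5 and 0.05). SE is the absolute log2-fold change over the square root of F, and intervals use 8.75 degrees of freedom. DESeq2 1.42.0, limma 3.58.1, another scaling, filter and pseudocount, other sets of libraries, the block and a length correction were alternatives. The code was tested on simulated data. Length is that of the longest coding transcript in GENCODE M21 (mm10), found for 93.2% of the loci tested and left out where another transcript is far longer, as for Flg.

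The comparison and the gene lists were chosen with earlier results of these data known. Named genes are Sbsn, the 12 loci in each direction with the largest smaller-sized same-sign difference (1 name, mean of 10 CPM or more), the 3 smallest p in each direction, up to 4 members of each list with the largest change at 5 CPM or more, and 23 genes set by name, some of which are not reported here. Prr7, the other DESeq2 calls, Tarbp2, Prkra, Ifnb1 and Cd207 were named after their values were seen.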

Additional observations from a re-analysis of the deposited data

How the results depend on the processing

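The absence of calls held with RLE size factors, limma-voom, the 6 libraries of batch 1, all 12 libraries and the length trend removed. It did not hold without the filter on low counts, with 377 calls among 18282 loci (49 higher, 328 lower), with DESeq2, with 7, or with a replicate block, with 1135 (288 higher, 847 lower), where 1 residual degree of freedom remains. Of the 377 calls without the filter, 372 fell on loci that pass it, so few were loci that the filter had kept out. The labels give the numbers and no shared source, so whether samples of 1 number share more than the number is not known. The deviations of the siControl and no siRNA replicates correlated with 0.388, and 66 of the 100 genes followed here passed the thresholds under the replicate block. With 1 library left out the calls ran from 0 to 3223, the latter without siControl replicate 2. The 62 loci lower by over 1 in both numbers were 67 with RLE, 37 with a pseudocount of 2, 20 with the length trend removed and 81 with the numbers crossed. The 1 higher locus became 0, 0 and 10 under the last 3. Loci without a length were left unchanged by the removal of the trend. The cause was not tested.

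Signs of some log2-fold changes among the 100 genes depended on a setting. With the length trend removed, Oas1a was at -0.058, Fasn at 0.062, Cdkn1a at -0.023 and Dst at 0.42. Isg15 was at 0.029 in limma-voom and 0.038 under the replicate block. With each library left out in turn, Sbsn ran from -0.38 to 0.048, Nrtn from -0.12 to 1.74, Ifit1 from -1.22 to 0.17, Isg15 from -0.51 to 0.68, Oas1a from -0.36 to 0.66, Oasl2 from -1.57 to 0.029 and Cxcl1 from -0.0011 to 1.56. Krt1 ran from -2.52 to 0.29, Krt10 from -1.26 to 0.39, Krt5 from -0.11 to 0.74, Krt6a from -0.13 to 0.62, Lor from -0.13 to 1.19 and Tgm1 from -0.076 to 0.57. Without siControl replicate 1 the medians of 4 lists also changed sign, to -0.027 for lysosome and autophagy, -0.26 for epidermal proteases, 0.023 for EGF receptor feedback and -0.022 for actin targets, and barrier lipid genes went to 0.15 without no siRNA replicate 1.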
